A study of Mus musculus with 6 samples.

Results

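A set of 9 secreted liver factors was examined as a group of fasting hormones and hepatokines, namely *Fgf21*, *Gdf15*, *Angptl4*, *Angptl6*, *Angptl8*, *Ahsg*, *Fetub*, *Lect2* and *Inhbe*. They were chosen by gene symbol, and all 9 were found among the 45777 genes of the deposited table. In the livers labelled LKO, every raw *Pak4* read count lay under every WT count, but raw counts are not scaled between libraries. Its CPM overlapped after TMM scaling, and *Pak4* was not called. After TMM scaling, *Gdf15*, *Angptl8* and *Inhbe* fell and *Angptl4* and *Ahsg* rose in LKO livers. *Fgf21*, *Angptl6*, *Fetub* and *Lect2* did not pass the test. Both rises depended on the scaling, and the 3 falls kept their direction under every scaling tried. The scalings that moved values most moved the median of all genes down, so they could undo a rise but not a fall. Relative to that median the rises and the falls all kept their sign. The rises shrank on log2(TPM + 1), from 0.89 to 0.10 for *Ahsg* and from 1.02 to 0.25 for *Angptl4*. *Inhbe* was not called with upper-quartile scaling, and its call held under 12 of 21 alternatives. Those of *Angptl4* and *Ahsg* held in the same direction under 13 of 21.

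The WT group held 3 mice that were *Pak4* flox/flox, and the LKO group held 3 that also carried Alb-Cre. All were males on the C57BL/6 strain, 8 weeks old, and fasted for 24 h, and no fed group was measured. Both genotypes carried the floxed alleles, and Cre from the albumin promoter acts in hepatocytes, so that other liver cells keep *Pak4*. Each mouse gave 1 library, and the comparison addresses how loss of the kinase PAK4 changes gene expression in the fasted liver.

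The liver talks to other organs through proteins that it secretes. FGF21 is a fasting hormone that signals through FGF receptors with the co-receptor β-Klotho, and GDF15 is a stress hormone that acts on the hindbrain receptor GFRAL to lower food intake. ANGPTL4 and ANGPTL8 restrain lipoprotein lipase and are known as fasting-induced and feeding-induced factors, respectively. The fetuins circulate as glycoproteins, LECT2 is a leukocyte chemotactic factor, and *Inhbe* encodes the subunit of activin E, a hepatokine that acts on adipose tissue. PPARα and the integrated stress response factor ATF4 are known activators of *Fgf21*, and PPARα is a known activator of *Angptl4*.

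Promoter letters are shown first because 3 of the members share letters of an element of the kind that ATF4 and its partners can bind. RefSeq promoter windows of GRCm38.p6 were matched for 8 of the 9 members, all but *Angptl4*, and up to 250 bases upstream of the start site were searched on both strands for 5 sets of letters. The CARE letters TGATGNAA were found in *Fgf21*, *Angptl8* and *Inhbe*. Of 32851 windows in the reference, 3.45% held them. The 30 bases around each match read as follows, written in the orientation of the element on the plus strand of the genome, with the matching letters in capitals.
Fgf21, chr7:45615611-45615640: gcctggacggaTGATGCAAtgggggggtct
Angptl8, chr9:21835369-21835398: agccatcagtcTGATGCAAtggctgagcct
Inhbe, chr10:127352011-127352040: gtggacatgcaTGATGCAAgaaagaggatg

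The matched letters were the same in the 3 genes, TGATGCAA, although the search allowed any base at the sixth position. They lay at −139 to −132 from the start of *Fgf21*, at −130 to −123 from that of *Angptl8* and at −181 to −174 from that of *Inhbe*. The upstream windows of these 3 genes and of *Gdf15*, which also fell, are given 5′ to 3′ on the strand of the gene, with the CARE and TATA letters in capitals.
Fgf21, chr7:45615491-45615740, minus strand: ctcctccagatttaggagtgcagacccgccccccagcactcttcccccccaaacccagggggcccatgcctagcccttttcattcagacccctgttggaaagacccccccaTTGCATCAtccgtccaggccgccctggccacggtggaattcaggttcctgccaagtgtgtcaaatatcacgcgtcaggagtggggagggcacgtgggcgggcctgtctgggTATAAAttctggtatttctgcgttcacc
Angptl8, chr9:21835260-21835509, plus strand: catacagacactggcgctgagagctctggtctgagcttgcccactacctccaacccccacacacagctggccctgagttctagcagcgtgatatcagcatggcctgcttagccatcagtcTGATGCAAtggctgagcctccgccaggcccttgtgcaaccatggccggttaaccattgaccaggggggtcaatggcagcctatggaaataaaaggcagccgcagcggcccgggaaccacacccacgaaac
Inhbe, chr10:127351849-127352098, minus strand: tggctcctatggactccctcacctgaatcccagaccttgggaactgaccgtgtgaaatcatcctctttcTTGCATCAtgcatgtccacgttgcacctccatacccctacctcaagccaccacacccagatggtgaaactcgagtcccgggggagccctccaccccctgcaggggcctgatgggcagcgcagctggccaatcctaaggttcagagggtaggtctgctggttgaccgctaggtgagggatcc
Gdf15, chr8:70632471-70632706, minus strand: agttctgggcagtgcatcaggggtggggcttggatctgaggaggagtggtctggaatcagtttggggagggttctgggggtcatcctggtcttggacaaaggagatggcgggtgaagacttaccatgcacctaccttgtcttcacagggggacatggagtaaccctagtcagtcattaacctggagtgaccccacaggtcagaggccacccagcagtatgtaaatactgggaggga

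The TATA letters TATAAA were found in the windows of *Fgf21* and *Fetub*, beginning at −28 and −31, against 12.4% of all windows. The letters AGGTCA that nuclear receptors recognise were found in *Gdf15* beginning at −55, against 14.0% of windows. That position counts from a start site 14 bases inside the gene, and the printed window stops before those bases. No member window held the DR1 arrangement that PPARα can bind, in which AGGTCA occurs a second time in the same direction after 1 base of any kind and which 0.0335% of windows held, or the CRE letters TGACGTCA, which 1.55% held. These matches describe letters in a short window and no binding was measured.

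Libraries held 45934632 to 55205564 read counts (WT) and 53936281 to 59576437 (LKO). The 7SL genes *Rn7s1* and *Rn7s2* took 4.55 to 5.24% of counts in WT livers and 11.2 to 15.8% in LKO livers, and TMM scaling factors were 1.28 to 1.43 and 0.639 to 0.816. CPM below are read counts relative to the TMM-scaled size of each library. When libraries were scaled by their total counts instead, the median log2 fold change of all 18636 genes tested moved from −0.04 to −0.90, a shift of −0.86. With log2(TPM + 1) it was −0.79, and each direction below is relative to such a choice. After TMM 3661 genes were higher and 3815 lower in LKO livers, whereas with total counts 1167 were higher and 9575 lower. *Pak4* read counts were 268, 210 and 271 in WT livers and 85, 52 and 149 in LKO livers. Every LKO count thus lay under every WT count. These counts are not scaled, and with total counts 51.4% of all genes were called lower. How many genes had raw counts separated in this way was not examined. After TMM scaling the CPM of *Pak4* overlapped, with a log2 fold change of −0.71 (SE 0.31, edgeR adjusted p = 0.101), and it was not called.

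After TMM scaling, markers of several liver cell types differed between genotypes, where 19.6% of all genes were called higher and 20.5% lower. The sums were not computed with total counts, which moved the median of all genes by −0.86. Each direction here is therefore relative to TMM. The summed level of the 7 hepatocyte markers in the table was 35284 to 39324 CPM in WT livers and 96192 to 111212 CPM in LKO livers, with 4 of 7 higher and 1 lower. Kupffer cell and macrophage markers summed to 274 to 414 CPM in WT livers and 445 to 865 in LKO livers, with 4 of 8 higher and 1 lower. Endothelial markers summed to 230 to 273 and 392 to 424 CPM, with 4 of 6 higher, and stellate and fibroblast markers to 219 to 254 and 561 to 828 CPM, with 3 of 6 higher. Cholangiocyte markers summed to 32.9 to 50.1 CPM in WT livers and 13.4 to 29.9 in LKO livers, with 1 of 4 tested lower. Of the blood cells, erythroid markers summed to 151 to 241 CPM in WT livers and 641 to 1181 in LKO livers, with 1 of 3 higher and 1 lower, and both tested neutrophil markers were higher. No B cell marker (3 tested) or T cell marker (2 tested) was called. *Cela1*, *Prss2* and *Cpa1*, the pancreas acinar markers, gave 1 tested gene and no call, and no adipocyte marker had enough counts to test. The part of these markers in the members' values was not tested, and in bulk liver fewer cells of a type cannot be told apart from less RNA per cell.

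Of the 9 members, 5 passed an adjusted p of 0.05 (55.6%), 2 of them higher and 3 lower in LKO livers, by the quasi-likelihood test of edgeR with p-values adjusted over the whole table. Of all genes tested, 40.1% passed, 19.6% higher and 20.5% lower. CPM did not overlap between the genotypes for the same 5 members. The 2 wholly higher members (22.2%) stood against 26.1% of all genes, and the 3 wholly lower (33.3%) against 27.9%. Such separation was thus common among all genes. All 9 members passed the filter on low counts. The number called was 2 (22.2%) without WT mouse 1, WT mouse 2 or LKO mouse 2, where 30.2%, 30.1% and 30.4% of all genes were called. It was 3 (33.3%) without WT mouse 3, 5 (55.6%) without LKO mouse 1 and 6 (66.7%) without LKO mouse 3, where 29.6%, 35.5% and 37.8% of all genes were called. The share of members called was thus below that of all genes in 3 of these 6 fits.

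**Figure D1:**
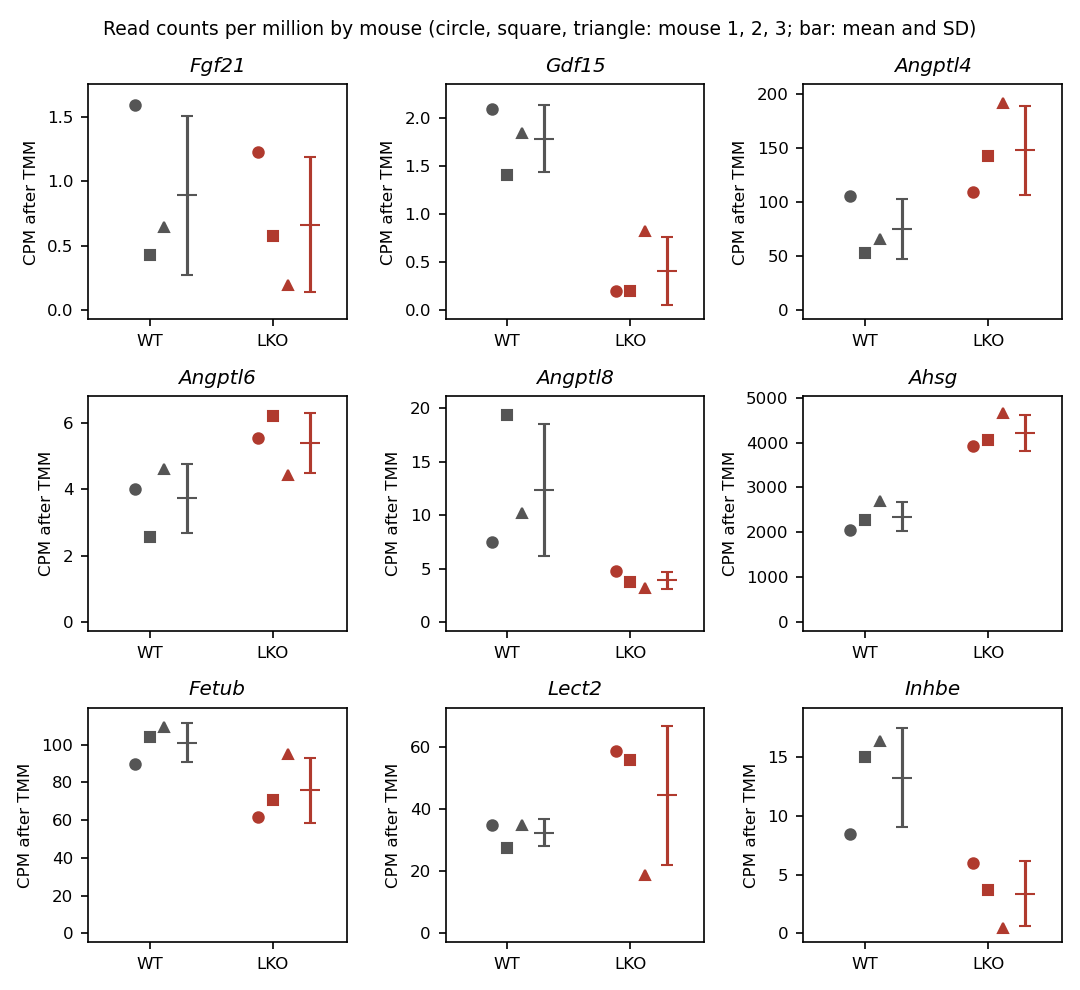
CPM after TMM scaling (vertical axes, separate scales) of the 9 genes in each WT and LKO mouse, with the mean and SD beside the points (n = 3 per genotype). The points of *Gdf15*, *Angptl8* and *Inhbe* lay lower in all LKO mice and those of *Angptl4* and *Ahsg* lay higher, while the other 4 genes overlapped.

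*Fgf21* (Entrez gene 56636; GRCm38.p6 chromosome 7, 45613890 to 45615490, minus strand) had few reads in every fasted liver. Its read counts were 119, 28 and 43 in WT livers 1, 2 and 3 and 54, 20 and 9 in LKO livers 1, 2 and 3. These were 1.6, 0.428 and 0.650 CPM in WT livers and 1.23, 0.573 and 0.195 CPM in LKO livers. The genotypes overlapped, and mouse 1 had the highest value of each genotype. The mean level was 0.891 ± 0.620 CPM in WT livers against 0.665 ± 0.522 CPM in LKO livers (SD, n = 3 each). Its log2 fold change, LKO against WT, came to −0.43 (SE 0.69, 95% interval −2.0 to 1.14, edgeR adjusted p = 0.649). Without WT mouse 1 the value turned to 0.30 (edgeR adjusted p = 0.774), and without LKO mouse 3 it was 0.02 (edgeR adjusted p = 0.985). On log2(TPM + 1) it passed the threshold as lower, at −0.88 (limma adjusted p = 0.0437).

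FGF21 signalling genes were mixed, as were all genes. Counts in this and the following lists stand against 40.1% of all genes called, 19.6% higher and 20.5% lower. Of 13 tested genes on the list, which includes *Fgf21*, 1 rose and 2 fell, with a median log2 fold change of 0.12 against −0.04 for all genes. With total counts, 0 rose and 4 fell. Among the receptors, *Fgfr3* fell from 20.4 ± 3.29 to 6.58 ± 1.16 CPM (log2 fold change −1.63, edgeR adjusted p = 0.000607). *Fgfr4*, a known FGF receptor of hepatocytes, fell from 4.99 ± 0.744 to 2.43 ± 0.619 CPM (log2 fold change −1.03, edgeR adjusted p = 0.0123). In WT livers it lay at 3.13 TPM, below *Fgfr3* (9.93) and *Fgfr2* (7.07). The co-receptor gene *Klb* was at 30.2 ± 3.56 and 39.8 ± 9.95 CPM and did not pass (log2 fold change 0.40, edgeR adjusted p = 0.155). *Fgfr1* (0.91) and *Fgfr2* (0.51) did not pass either, with edgeR adjusted p of 0.0795 and 0.0582. *Spry1*, a feedback inhibitor of receptor tyrosine kinase signalling, rose from 1.16 ± 0.253 to 3.49 ± 0.436 CPM (log2 fold change 1.58, edgeR adjusted p = 0.00215).

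*Gdf15* (Entrez gene 23886; chromosome 8, 70629393 to 70632470, minus strand) had few reads in either genotype. Its read counts were 156, 92 and 122 in WT livers and 9, 7 and 38 in LKO livers. These corresponded to 2.09, 1.41 and 1.84 CPM in WT livers against 0.204, 0.201 and 0.822 CPM in LKO livers. Every LKO value lay under every WT value, with LKO mouse 3 nearest to them. The mean fell from 1.78 ± 0.347 to 0.409 ± 0.357 CPM (SD, n = 3 each), and the log2 fold change was −2.09 (SE 0.54, edgeR adjusted p = 0.0156), or 4.26-fold lower. Without WT mouse 1 or LKO mouse 2 the adjusted p was 0.0501 and 0.0559, and without LKO mouse 3 the log2 fold change was −3.12 (edgeR adjusted p = 0.00136).

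No reads of the GDF15 receptor were detected in liver. *Gfral* and its partner *Ret* had 0 counts in all 6 mice, where a count of 0 allows up to 3 counts per library. The 4 tested genes of the GDF15 list had a median log2 fold change of −1.26, with 0 higher and 2 lower, *Gdf15* itself and *Pcsk6*, and 1 was called without WT mouse 1 or LKO mouse 2. With total counts 0 rose and 4 fell. *Pcsk6*, a proprotein convertase that cleaves precursor proteins, fell from 68.4 ± 14.6 to 16.8 ± 2.29 CPM (log2 fold change −2.03, edgeR adjusted p = 0.000333).

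The genes whose pattern across the 6 mice was nearest to *Fgf21* and *Gdf15* were sought among 6648 protein-coding genes whose mean reached 10 CPM, by the root mean square distance of centred log2 CPM. *Ppp1r3c*, a glycogen-targeting phosphatase subunit, was nearest to *Fgf21* at 0.374, followed by *Mgll*, which encodes monoglyceride lipase, at 0.400 and the water channel gene *Aqp4* at 0.430. For *Gdf15* the nearest were *Ero1lb*, an oxidase of the endoplasmic reticulum, at 0.400, the galactosyltransferase gene *B4galt5* at 0.418 and *Cars*, the cysteinyl-tRNA synthetase gene, at 0.458. These distances are descriptions over 3 WT and 3 LKO mice, and a similar difference between the genotypes is enough to make genes near.

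*Angptl4* (Entrez gene 57875; chromosome 17, 33774900 to 33781575, minus strand), an inhibitor of lipoprotein lipase, had read counts of 7922, 3479 and 4381 in WT livers and 4837, 4982 and 8879 in LKO livers. These were 106, 53.2 and 66.2 CPM in WT livers against 110, 143 and 192 CPM in LKO livers. The LKO values lay higher throughout, but LKO mouse 1 and WT mouse 1 nearly met. The mean rose from 75.2 ± 27.7 to 148 ± 41.3 CPM (SD, n = 3 each, log2 fold change 0.98, SE 0.29, edgeR adjusted p = 0.0284), whereas with total counts the log2 fold change was 0.12 (edgeR adjusted p = 0.755) and on log2(TPM + 1) it was −0.53. The call was lost without WT mouse 2 (0.75, edgeR adjusted p = 0.108), WT mouse 3 (0.87, 0.112), LKO mouse 2 (1.00, 0.0708) or LKO mouse 3 (0.75, 0.0782).

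*Angptl8* (Entrez gene 624219; chromosome 9, 21835510 to 21837347, plus strand), whose product restrains lipoprotein lipase, was the member called under every alternative tried. Read counts were 558, 1266 and 677 in WT livers and 211, 129 and 147 in LKO livers. They scaled to 7.48, 19.3 and 10.2 CPM in WT livers against 4.79, 3.70 and 3.18 CPM in LKO livers. All LKO values lay under all WT values, and WT mouse 2 stood highest. The mean fell from 12.4 ± 6.21 to 3.89 ± 0.824 CPM (SD, n = 3 each, log2 fold change −1.67, SE 0.35, edgeR adjusted p = 0.0067), or 3.17-fold. Over 21 alternatives the log2 fold change ran from −3.08 to −1.21 with adjusted p of 2.01e-05 to 0.0330.

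*Angptl6* (Entrez gene 70726; chromosome 9, 20873808 to 20879822, minus strand), also known as angiopoietin-related growth factor, overlapped between genotypes. Its read counts were 298, 168 and 305 in WT livers and 244, 217 and 205 in LKO livers, or 4.0, 2.57 and 4.61 and 5.54, 6.22 and 4.43 CPM. LKO mouse 3 lay below WT mouse 3. The log2 fold change was 0.53 (SE 0.26, 95% interval −0.07 to 1.13, edgeR adjusted p = 0.14), and with total counts it was −0.33.

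Within the 6 tested genes of the ANGPTL family, 1 rose and 2 fell, with a median log2 fold change of 0.64. With total counts, 0 rose and 2 fell. *Angptl2*, the other gene that fell, went from 9.32 ± 0.939 to 5.49 ± 1.06 CPM (log2 fold change −0.76, edgeR adjusted p = 0.0163), and without WT mouse 3, where 1 of the family was called, its adjusted p was 0.0589.

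*Angptl4* and *Angptl8* were also compared within each mouse, which needs no scaling between mice. The ratio of *Angptl4* to *Angptl8* read counts was 14.2, 2.75 and 6.47 in WT livers and 22.9, 38.6 and 60.4 in LKO livers. All LKO ratios lay above all WT ratios, and their means stood 5.21-fold apart (two-sided exact permutation test on log2 ratios, p = 0.1, the smallest that 3 against 3 mice allow). This separation had to follow, since *Angptl4* CPM lay wholly higher and *Angptl8* CPM wholly lower in LKO livers. The pair was chosen after seeing the data, so the test adds no further evidence. The ratio of *Angptl4* to *Angptl6* overlapped, at 14.4 to 26.6 in WT and 19.8 to 43.3 in LKO livers (exact permutation p = 0.5).

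The lipases and partners on which ANGPTL proteins act shifted in both directions, with more falls than rises. Of all genes, 19.6% were called higher and 20.5% lower. Of 13 tested genes, 3 rose and 5 fell, with a median of −0.50, and with total counts 0 rose and 9 fell. *Gpihbp1*, which carries lipoprotein lipase on the capillary surface, rose from 9.16 ± 1.20 to 18.1 ± 1.23 CPM (log2 fold change 0.99, edgeR adjusted p = 0.00199). It is a gene of endothelial cells, whose markers moved with it after TMM scaling (4 of 6 higher), and their part in it was not tested. *Apoa5*, an activator of lipolysis, rose by 0.98 (edgeR adjusted p = 0.00405). *Apoc1*, an apolipoprotein that restrains lipases, rose by 0.66 (edgeR adjusted p = 0.0474, and 0.0691 to 0.147 without any 1 mouse other than LKO mouse 3), but relative to all genes it was −0.12 on log2(TPM + 1) and −0.06 after correction for gene length. *Lipg*, which encodes endothelial lipase, fell from 17.6 ± 6.65 to 2.11 ± 1.25 CPM (log2 fold change −3.06, edgeR adjusted p = 0.0014, and −3.66 without LKO mouse 1), and *Lmf1*, a chaperone for the maturation of lipases, fell from 21.2 ± 1.08 to 5.92 ± 1.04 CPM (log2 fold change −1.84, edgeR adjusted p = 0.000313). *Lpl*, which encodes lipoprotein lipase and is named here after its values were seen, fell from 44.8 ± 12.6 to 14.1 ± 2.02 CPM (log2 fold change −1.66, edgeR adjusted p = 0.0011).

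*Ahsg* (Entrez gene 11625; chromosome 16, 22892015 to 22899451, plus strand) encodes fetuin-A, a plasma glycoprotein that can inhibit the insulin receptor and calcification. It was the most abundant member by far. Read counts were 153179, 149171 and 178173 in WT livers and 172723, 141278 and 215791 in LKO livers. They came to 2054, 2280 and 2694 CPM in WT livers against 3924, 4051 and 4666 CPM in LKO livers, with all LKO values above all WT values. The mean rose from 2343 ± 324 to 4214 ± 397 CPM (SD, n = 3 each, log2 fold change 0.85, SE 0.23, edgeR adjusted p = 0.0194), but the raw counts overlapped, with total counts the log2 fold change was −0.01 (edgeR adjusted p = 0.970), and on log2(TPM + 1) it was −0.69 (limma adjusted p = 0.0286). The call was lost without WT mouse 1 (0.76, edgeR adjusted p = 0.0792) or WT mouse 2 (0.80, 0.0603).

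*Fetub* (Entrez gene 59083; chromosome 16, 22918382 to 22939768, plus strand) encodes fetuin-B, an inhibitor of the egg protease ovastacin, and lies 18930 bases from *Ahsg* on the same strand. Its read counts were 6673, 6817 and 7228 in WT livers and 2705, 2464 and 4387 in LKO livers. These were 89.5, 104 and 109 CPM in WT livers against 61.5, 70.7 and 94.9 CPM in LKO livers, so that LKO mouse 3 lay above WT mouse 1. The log2 fold change was −0.42 (SE 0.19, 95% interval −0.85 to 0.02, edgeR adjusted p = 0.114). It passed the threshold without LKO mouse 3, at −0.62 (edgeR adjusted p = 0.0184), and with total counts, at −1.28 (edgeR adjusted p = 0.00115).

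The read count ratio of the neighbouring fetuin genes lay higher in every LKO mouse than in any WT mouse. *Ahsg* had 23.0, 21.9 and 24.7 reads per *Fetub* read in WT livers and 63.9, 57.3 and 49.2 in LKO livers. The ratios did not overlap and stood 2.45-fold apart, from a mean of 23.2 ± 1.40 to 56.8 ± 7.35 (exact permutation p = 0.1, the smallest possible). *Ahsg* CPM already lay wholly higher in LKO livers, and the pair was chosen after seeing the data. The test therefore adds no further evidence, and how often other gene pairs separate was not examined.

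**Figure D2:**
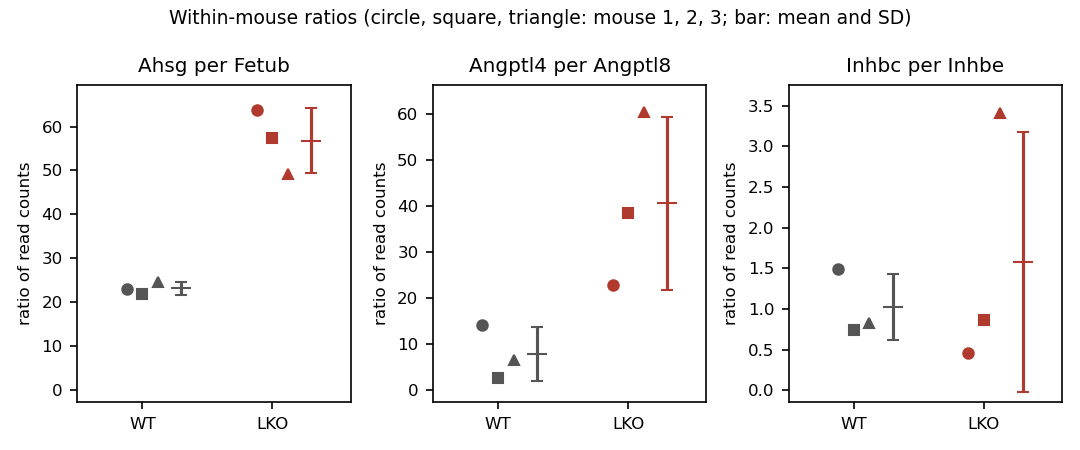
Ratio of read counts within each mouse (vertical axes) for *Ahsg* per *Fetub*, *Angptl4* per *Angptl8* and *Inhbc* per *Inhbe*, with mean and SD (n = 3 per genotype). The first and second ratios were higher in every LKO mouse, and the third overlapped, with LKO mouse 3 at 3.41.

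Of the 7 tested fetuins and other liver proteins of the cystatin superfamily, *Ahsg* included, 4 rose and 0 fell. The median log2 fold change, 0.85, was that of *Ahsg* itself. With total counts 2 rose and 3 fell, and on log2(TPM + 1) 0 rose and 5 fell. *Hrg*, which encodes histidine-rich glycoprotein and is the next gene after *Fetub* on the chromosome, rose from 116 ± 10.8 to 341 ± 99.7 CPM (log2 fold change 1.55, edgeR adjusted p = 0.0016). *Cst3*, encoding the protease inhibitor cystatin C, rose from 59.3 ± 3.35 to 159 ± 49.3 CPM (log2 fold change 1.42, edgeR adjusted p = 0.00161), and the kininogen gene *Kng2* rose by 0.92 (edgeR adjusted p = 0.00695).

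Among the 7 tested fetuin partners, 2 rose and 1 fell, with a median of 0.19, and with total counts 0 rose and 4 fell. *Insr*, the insulin receptor gene, was at 124 ± 11.1 CPM in WT livers against 141 ± 16.9 CPM in LKO livers (log2 fold change 0.19, edgeR adjusted p = 0.37). *Irs2*, an adaptor of that receptor, rose by 2.03 (edgeR adjusted p = 0.0392), with 620, 186 and 301 reads in WT livers and 464, 292 and 2091 in LKO livers, so that LKO mouse 3 stood far above the rest. Without that mouse it was 0.85 (edgeR adjusted p = 0.139), and without WT mouse 2 or 3 its call was also lost (0.133 and 0.119). *Tlr4*, a receptor of innate immunity for which fetuin-A can serve as an adaptor, rose from 14.6 ± 1.74 to 27.0 ± 6.24 CPM (log2 fold change 0.89, edgeR adjusted p = 0.00824). Kupffer cell and macrophage markers also moved up after TMM scaling (4 of 8 higher, 1 lower), and their part in *Tlr4* was not tested. Of the asialoglycoprotein receptor subunits, which clear desialylated glycoproteins, *Asgr2* fell from 82.1 ± 33.0 to 31.9 ± 2.97 CPM (log2 fold change −1.36, edgeR adjusted p = 0.00452) and *Asgr1* was at 232 ± 18.8 and 245 ± 51.9 CPM (edgeR adjusted p = 0.787).

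*Lect2* (Entrez gene 16841; chromosome 13, 56529734 to 56548559, minus strand) varied more among LKO than among WT mice. Its read counts were 2607, 1790 and 2315 in WT livers and 2590, 1952 and 864 in LKO livers. They corresponded to 35, 27.4 and 35 CPM in WT livers against 58.8, 56.0 and 18.7 CPM in LKO livers. LKO mice 1 and 2 lay above all WT mice and LKO mouse 3 below them all. The log2 fold change was 0.46 (SE 0.37, 95% interval −0.40 to 1.31, edgeR adjusted p = 0.367). Without LKO mouse 3 it was 0.82 (edgeR adjusted p = 0.0055), and with total counts it was −0.42 (edgeR adjusted p = 0.353).

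Of the LECT2 receptors, *Tie1*, an endothelial receptor, rose from 8.71 ± 1.07 to 13.9 ± 0.726 CPM (log2 fold change 0.68, edgeR adjusted p = 0.0102), a direction that turns with total counts, where 0 of the 3 tested receptors rose and 2 fell. Without WT mouse 3 it was not called (0.58, edgeR adjusted p = 0.0583). The endothelial markers, in which 4 of 6 were higher after TMM scaling, moved with it, and their part in it was not tested. *Met*, the hepatocyte growth factor receptor gene, was at 108 ± 24.0 and 99.3 ± 26.1 CPM and did not pass (log2 fold change −0.13, edgeR adjusted p = 0.701), and the median of the list was −0.13.

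*Inhbe* (Entrez gene 16326; chromosome 10, 127349402 to 127351848, minus strand) had read counts of 633, 980 and 1081 in WT livers and 262, 129 and 22 in LKO livers. These were 8.49, 15.0 and 16.3 CPM in WT livers against 5.95, 3.70 and 0.476 CPM in LKO livers, and the genotypes did not overlap. LKO mouse 3 stood far below the other LKO mice. The mean fell from 13.3 ± 4.2 to 3.38 ± 2.75 CPM (SD, n = 3 each, log2 fold change −1.98, SE 0.68; 95% interval −3.53 to −0.42; edgeR adjusted p = 0.0471), or 3.94-fold. The call lay near the threshold and was lost without any WT mouse, where adjusted p ran from 0.0585 (without WT mouse 1) through 0.11 (WT mouse 2) to 0.117 (WT mouse 3), and without LKO mouse 2 (0.121). It was also lost with the DESeq2 Wald test (0.0766), with upper-quartile scaling (0.0617) and with a gene length correction (0.0555). Without LKO mouse 3 the log2 fold change was −1.46 (edgeR adjusted p = 0.0134), and without LKO mouse 1 it was −2.70 (edgeR adjusted p = 0.0245).

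The other activin and inhibin genes moved in both directions, with more falls than rises, where 19.6% of all genes were higher and 20.5% lower. Of 15 tested, *Inhbe* included, 2 rose and 6 fell, with a median of 0.07, and with total counts 1 rose and 9 fell. Without WT mouse 3 or LKO mouse 2, 5 were called. *Inhbc*, the gene of the activin C subunit 4473 bases from *Inhbe* on the same strand, fell from 12.5 ± 1.20 to 2.52 ± 0.806 CPM (log2 fold change −2.31, edgeR adjusted p = 0.000478). Within each mouse the ratio of *Inhbc* to *Inhbe* reads overlapped, at 1.49, 0.746 and 0.830 in WT and 0.462, 0.860 and 3.41 in LKO livers (exact permutation p = 0.8).
*Inhba*, the activin A subunit gene, fell from 29.1 ± 18.6 to 4.43 ± 2.67 CPM (log2 fold change −2.72, edgeR adjusted p = 0.00823, and −2.11 without WT mouse 2), whereas *Inhbb*, the activin B subunit gene, rose from 0.994 ± 0.285 to 5.76 ± 0.764 CPM (log2 fold change 2.53, edgeR adjusted p = 0.00046). *Tgfbr3*, the co-receptor betaglycan, rose by 1.21 (edgeR adjusted p = 0.00217). Of the activin receptors, *Acvr2b* fell by 0.77 on the log2 scale (edgeR adjusted p = 0.0361, and 0.0562 to 0.106 without WT mouse 2 or 3 or any 1 LKO mouse), while *Acvr2a* (0.52), *Acvr1* (0.15) and *Acvr1b* (−0.19) did not pass, with edgeR adjusted p of 0.109, 0.635 and 0.496.

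On a scale per gene length, TPM, the members differed widely in level. In WT mice *Ahsg* came first at 3041 ± 336 TPM, followed by *Fetub* at 127 ± 15.5, *Angptl4* at 77.4 ± 27.7, *Lect2* at 72.5 ± 6.36, *Angptl8* at 28.6 ± 16.1, *Inhbe* at 11.8 ± 3.72, *Angptl6* at 4.54 ± 0.996, *Gdf15* at 2.3 ± 0.350 and *Fgf21* at 1.82 ± 1.28 (SD, n = 3). The ranges of *Angptl4* and *Lect2* overlapped, as did those of *Gdf15* and *Fgf21*, and the other neighbours in this order did not. In LKO mice the order was *Ahsg* at 1909 ± 444 TPM, *Angptl4* at 53.4 ± 20.3, *Lect2* at 33.4 ± 16.5, *Fetub* at 32.9 ± 11.2, *Angptl8* at 3.05 ± 0.882, *Angptl6* at 2.26 ± 0.246, *Inhbe* at 1.01 ± 0.910, *Fgf21* at 0.473 ± 0.412 and *Gdf15* at 0.193 ± 0.204. Only *Ahsg*, *Fetub* and *Angptl6* were set apart from the next gene down in LKO livers. *Gdf15* was last in LKO livers, and *Fetub* stood behind *Angptl4* and *Lect2* there.

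**Figure D3:**
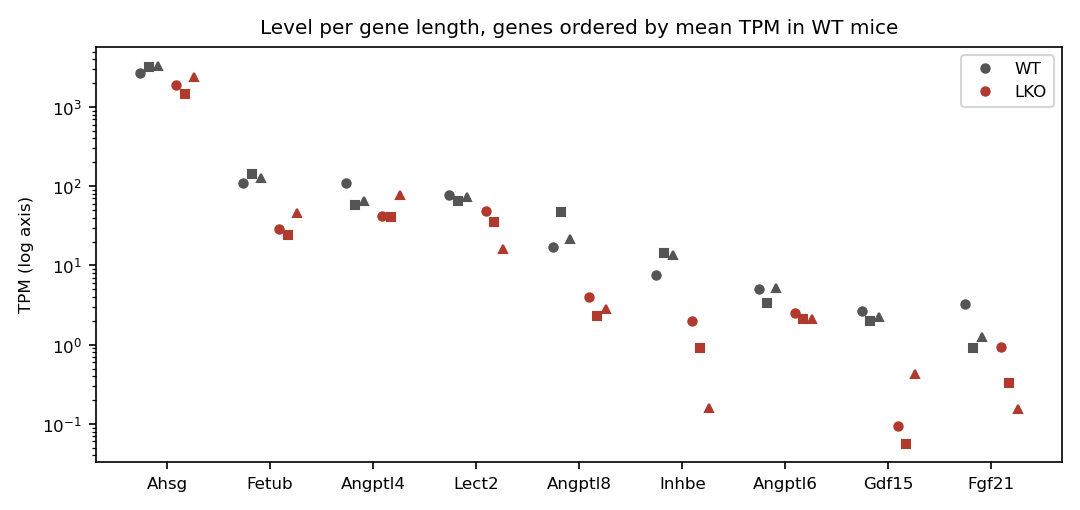
Level per gene length in TPM (log axis) of the 9 genes in single WT and LKO mice, ordered by the WT mean. *Ahsg* lay above all other members in both genotypes, and *Gdf15*, *Fgf21* and *Inhbe* reached under 1 TPM in LKO livers.

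The choice of scaling decided how many members counted as higher. With TMM 2 members were called higher and 3 lower. With total counts 0 were called higher and 4 lower (44.4%), namely *Gdf15*, *Angptl8*, *Fetub* and *Inhbe*, while 51.4% of all genes were called lower. On log2(TPM + 1) 8 members were called lower (88.9%), all but *Angptl4*, while 71.5% of all genes were called lower. Relative to the median of all genes, *Gdf15*, *Angptl4*, *Angptl6*, *Angptl8*, *Ahsg*, *Fetub* and *Inhbe* kept their sign under all alternatives tried, including the scalings. On log2(TPM + 1) the relative values of the higher genes were small, at 0.25 for *Angptl4*, 0.10 for *Ahsg* and 0.04 for *Angptl6*.

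**Figure D4:**
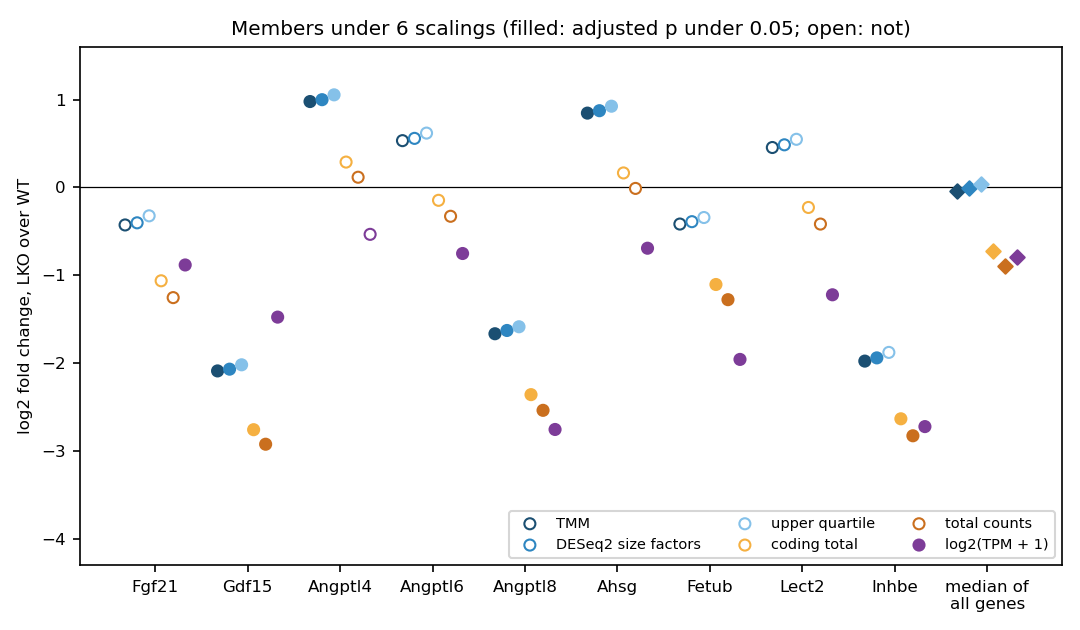
Log2 fold change of LKO over WT for the 9 genes under 6 scalings, with the median of all genes as diamonds at the right. Filled points passed an adjusted p of 0.05 and open points did not. *Gdf15*, *Angptl8* and *Inhbe* lay below 0 throughout, while *Angptl4* and *Ahsg* moved toward or below 0 together with the median of all genes.

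Transcription factors known to drive the members, or to do so in other settings, moved both ways, as did all genes (19.6% higher, 20.5% lower). Of 22 tested, 5 rose and 5 fell, with a median of −0.21, and with total counts 1 rose and 14 fell. Without WT mouse 1, 6 were called. *Ppargc1a*, a coactivator of fasting genes, rose by 2.56 (edgeR adjusted p = 0.0166), with 643, 615 and 449 reads in WT livers and 833, 627 and 5077 in LKO livers, so that LKO mouse 3 stood apart. Without WT mouse 1, 2 or 3 its adjusted p was 0.0521, 0.0554 and 0.0619, and without LKO mouse 3 its log2 fold change was 1.15 (edgeR adjusted p = 0.00277). *Atf5*, a stress response factor, rose from 8.41 ± 1.94 to 30.4 ± 6.53 CPM (log2 fold change 1.85, edgeR adjusted p = 0.000627), and *Cebpb* rose by 1.46 (edgeR adjusted p = 0.022, and 0.0566 to 0.0761 without WT mouse 1, LKO mouse 2 or LKO mouse 3). *Srebf1*, the lipogenic factor SREBP1, fell from 118 ± 60.7 to 10.5 ± 1.39 CPM (log2 fold change −3.50, edgeR adjusted p = 0.000369). *Mlxipl*, which encodes the glucose-responsive factor ChREBP, fell from 101 ± 13.6 to 38.1 ± 3.93 CPM (log2 fold change −1.40, edgeR adjusted p = 0.000504), and *Ddit3*, encoding CHOP, fell from 6.01 ± 2.22 to 2.58 ± 0.757 CPM (log2 fold change −1.22, edgeR adjusted p = 0.0167, and 0.0512 to 0.0649 without WT mouse 1, LKO mouse 1 or LKO mouse 2). *Atf4*, named after its values were seen because the CARE letters carry its name, was at 63.4 ± 8.23 and 65.3 ± 26.5 CPM (log2 fold change 0.04, edgeR adjusted p = 0.914). *Ppara*, the gene of PPARα and also named after its values were seen, fell from 209 ± 69.4 to 95.7 ± 11.2 CPM (log2 fold change −1.12, edgeR adjusted p = 0.00685), with all LKO values under all WT values.

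Targets of ATF4 and CHOP did not move one way, and neither did all genes (19.6% higher, 20.5% lower). Of 20 tested, 3 rose and 5 fell, with a median of −0.17, and with total counts 3 rose and 11 fell. *Ddit4*, an inhibitor of mTORC1, rose by 3.82 (edgeR adjusted p = 0.00861), with 6718 reads in LKO mouse 3 against 554 and 983 in the other LKO mice and 173 to 485 in WT livers, and without that mouse it was 2.21 (edgeR adjusted p = 0.00657). *Cth*, an enzyme of cysteine synthesis, rose from 199.9 ± 9.68 to 1700.2 ± 44.9 CPM (log2 fold change 3.09, edgeR adjusted p = 0.000116). The falls included *Mthfd2*, an enzyme of mitochondrial folate metabolism (−2.29, edgeR adjusted p = 0.00836, and −3.13 without LKO mouse 3), and the tRNA synthetase genes *Wars* (−1.26, 0.000738) and *Aars* (−1.04, 0.00131).

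PPARα targets of the fasting liver moved in both directions, with more rises than falls after TMM and more falls than rises with total counts. Of 24 tested, 8 rose and 2 fell after TMM, where 19.6% of all genes were higher and 20.5% lower. Their median was 0.31 against −0.04 for all genes, and with total counts 3 rose and 10 fell. Without WT mouse 2, WT mouse 3 or LKO mouse 2, 6, 5 and 5 were called. The fatty acid ω-hydroxylase genes *Cyp4a10* and *Cyp4a14* rose by 4.36 and 4.30 (edgeR adjusted p = 0.0004 and 0.000759), or by 5.01 and 5.06 without WT mouse 1, and *Pdk4*, which spares glucose by blocking pyruvate dehydrogenase, rose by 1.95 (edgeR adjusted p = 0.0158, and 0.0594 without WT mouse 3). *Slc25a20*, the mitochondrial carnitine carrier, fell by 0.99 on the log2 scale (edgeR adjusted p = 0.00874), and *Cidec*, a lipid droplet protein, fell by 0.97 (edgeR adjusted p = 0.0151, and 0.0647 and 0.0605 without WT mouse 1 and LKO mouse 2). The lists share some genes, and they were chosen with earlier results of these data known.

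**Figure D5:**
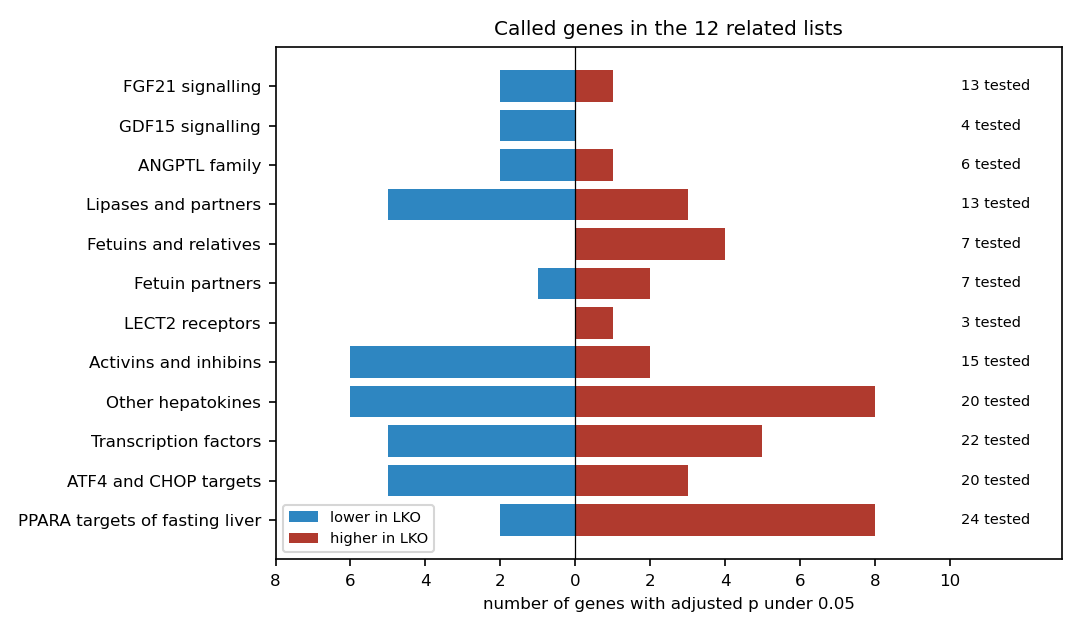
Number of genes called higher (right) or lower (left) in LKO livers in each of 12 related lists after TMM scaling (adjusted p under 0.05), with the number tested at the right edge. PPARα targets of fasting liver show 8 rises and 2 falls, the fetuins and relatives 4 rises and 0 falls, and activins and inhibins 2 rises and 6 falls. Of all genes tested, 19.6% were called higher and 20.5% lower.

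Genes beside the members were examined because strand use in the counting is not given in the sources used here, and reads from overlapping genes on opposite strands cannot then be told apart. *Angptl8* lies inside *Dock6*, a guanine nucleotide exchange factor gene on the opposite strand, which fell by 0.89 on the log2 scale (edgeR adjusted p = 0.00836) with 207 to 983 reads per mouse. *Ahsg* overlaps *Gm30505* on the opposite strand, which rose by 2.59 (edgeR adjusted p = 0.00146) with 27 to 170 reads per mouse, against 141278 or more for *Ahsg*. *Lect2* overlaps *Fbxl21* on the opposite strand, which rose by 1.21 (edgeR adjusted p = 0.0278) with 23 to 52 reads per mouse. *Angptl6* overlaps the end of *Shfl*, an antiviral gene, which was at −1.13 (edgeR adjusted p = 0.0515).
The nearest tested genes on each side were also compared. *Bcat2* (−0.02) and *Rasip1* (0.49) beside *Fgf21*, and *Lrrc25* (−0.67) and *Pgpep1* (−0.12) beside *Gdf15*, did not pass. Beside *Angptl4*, *Kank3* rose by 1.41 (edgeR adjusted p = 0.00173) and LOC115488819 was at −0.22. Beside *Angptl6*, *Col5a3* and *Ppan* fell by 2.01 and 1.25 on the log2 scale (edgeR adjusted p = 0.0124 and 0.00534). Beside *Angptl8*, *Rab3d* fell by 1.28 (edgeR adjusted p = 0.0125) and *Kank2* (−0.45) did not pass. *Dnajb11*, beside *Ahsg*, fell by 0.70 (edgeR adjusted p = 0.0396). *Slc25a48* (0.24) and *Tgfbi* (0.29) beside *Lect2*, and *Arhgap9* (0.37) beside *Inhbe*, did not pass.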

How the data were processed

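Liver RNA of 3 WT and 3 LKO mice was sequenced by the authors, 1 library for each mouse, and the genotype label gave each sample its group. The labels name a stranded mRNA kit, whereas the methods name a total RNA kit with removal of rRNA. The submitters' processing notes name HISAT2 2.1.0, Bowtie2 2.3.4.1 and StringTie 2.1.3b, and the files use the mm10 genome. The table that the authors deposited holds, for 45777 genes, raw read counts beside FPKM and TPM per mouse, all made with StringTie. The deposited FPKM entered only the relative gene length, and the deposited TPM gave levels per gene length and an alternative test.

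A gene was kept if at most 1 of its 6 counts was zero, which left 18636. After TMM scaling, genotypes were compared in R 4.3.3 by edgeR 4.0.16 (quasi-likelihood test, two-sided), and p-values were adjusted by Benjamini-Hochberg over the whole table. An adjusted p under 0.05 was called. The libraries held 45934632 to 59576437 counts, and precision is given as the SD over 3 mice or the standard error of the model. Ratios of counts within a mouse, chosen after seeing the data, were tested by exact permutation (two-sided), whose smallest p is 0.1 here.

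The members and lists were chosen with earlier results of these data known. All 9 members are named. Of each list, receptors of a member with a mean of at least 1 CPM are named, and otherwise up to 3 called genes with the largest rise and 3 with the largest fall. Overlapping and nearest tested genes, and the 3 genes nearest in pattern to *Fgf21* and *Gdf15*, are also named. Values of some list genes are not reported here, though they stay in the counts. Coordinates and promoters came from RefSeq on GRCm38.p6, the assembly that mm10 represents.

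Alternatives were other scalings, filters and tests (DESeq2 1.42.0, edgeR's exactTest, limma 3.58.1 on log2(TPM + 1) and log2(TPM + 0.1)), protein-coding genes alone, a correction for gene length, the replicate number as a block, stricter thresholds, and leaving out each mouse. The fit was tested on simulated counts with known changes.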

Additional observations from a re-analysis of the deposited data

How the results depend on the processing

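The count of 5 called members became 8 with limma on log2(TPM + 1) and 8 on log2(TPM + 0.1), where 13775 and 14002 of all genes were called against 7476 with TMM. It was 3 with the replicate block and 3 with the block and a gene length correction (6431 and 6197 of all genes), 1 at an adjusted p under 0.01, 3 at a change of at least 2-fold, and 2 to 6 when 1 mouse was left out. The replicate numbers share only a label: deviations of same-numbered WT and LKO mice from their group means correlated at 2e-04, −0.039 and −0.0557, and the block ended the calls of *Ahsg* (adjusted p = 0.0518) and *Inhbe* (0.0619).

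Some values changed sign. With total counts *Angptl6* was −0.33, *Ahsg* −0.0106 and *Lect2* −0.42, and with protein-coding totals *Angptl6* was −0.15 and *Lect2* −0.23. On log2(TPM + 1) *Angptl4* was −0.53, *Angptl6* −0.75, *Ahsg* −0.69 and *Lect2* −1.22, and on log2(TPM + 0.1) they were −0.54, −0.96, −0.69 and −1.25. With the block and length correction *Lect2* was −0.11. *Fgf21* ran from −1.25 to 0.30 as mice were left out. Relative to the median of all genes, log2(TPM + 1) turned *Klb* (−0.19), *Fgfr2* (−0.0526), *Apoc1* (−0.12), *Insr* (−0.49), *Asgr1* (−0.68), *Acvr1* (−0.22), *Acvr2a* (−0.10) and *Gpnmb* (0.0057), and log2(TPM + 0.1) turned *Insr* (−0.0122) and *Asgr1* (−0.14). The length correction turned *Apoc1* (−0.0552), *Asgr1* (−0.0926) and *Met* (0.0599), and with the block they were −0.0492, −0.0896 and 0.0514. *Met* ran from −0.27 to 0.14 as mice were left out. The causes were not tested. Relative to that median, the other 1136 of 1154 pairs of a list gene and an alternative kept their direction, 1020 of them also their side of the threshold, and 210 of 252 list counts stayed within 1.5 times, with 21 of the other 42 under total counts or TPM.

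*Angptl8* was called under all 21 alternatives, *Gdf15* under 18 of 20, *Angptl4* under 13, *Ahsg* under 13 in the same direction and *Inhbe* under 12. With at least 10 counts in every mouse *Fgf21* and *Gdf15* had no value, since their low counts limit what can be seen. A design of 3 against 3 mice with 1 library each leaves wide intervals for *Fgf21*, *Lect2* and *Inhbe*.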

Other observations

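Other secreted liver factors also differed between the genotypes, where 19.6% of all genes were called higher and 20.5% lower. Of 20 further hepatokines tested, 8 rose and 6 fell after TMM, with a median log2 fold change of 0.09, whereas with total counts 2 rose and 10 fell. Without WT mouse 1 and WT mouse 3, 9 and 8 were called. *Fgl1*, a liver ligand of the immune receptor LAG3, had 11668, 16714 and 10838 reads in WT livers and 50606, 76022 and 71684 in LKO livers, a log2 fold change of 3.08 (edgeR adjusted p = 0.000374). *Igfbp1*, a fasting-responsive binding protein of insulin-like growth factors, had 2808, 110 and 938 reads in WT livers and 5575, 9297 and 88994 in LKO livers. Its log2 fold change was 5.44 (SE 1.36; edgeR adjusted p = 0.0135), and LKO mouse 3 stood far above the rest. Without that mouse it was 3.46 (edgeR adjusted p = 0.0271), without WT mouse 1 it was 6.6 (edgeR adjusted p = 0.0212), and without WT mouse 3 the adjusted p was 0.0553. *Hgf*, hepatocyte growth factor, rose from 23.8 ± 4.36 to 63.4 ± 4.39 CPM (log2 fold change 1.41, edgeR adjusted p = 0.000567). Stellate and fibroblast markers also moved up after TMM scaling (3 of 6 higher), and their part in *Hgf* was not tested.

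*Tsku*, the hepatokine tsukushi, fell from 127 ± 30.8 to 20.1 ± 11.3 CPM (log2 fold change −2.66, edgeR adjusted p = 0.00114). *Gpnmb*, also a macrophage glycoprotein, fell by 1.68 on the log2 scale (edgeR adjusted p = 0.0105).

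LKO mouse 3 lay apart from the other LKO mice in several genes at once. It had the highest LKO read count of *Gdf15*, *Igfbp1*, *Irs2*, *Ddit4* and *Ppargc1a* and the lowest of *Fgf21*, *Lect2* and *Inhbe*. It also had the highest LKO read count of *Pak4*, 149 against 85 and 52, and its 3.22 CPM lay within the WT range of 3.21 to 4.1 CPM. These genes were picked after their values were seen.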
